A study of Rattus norvegicus with 72 samples.

Results

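Lung RNA of 6 rats that had inhaled diesel exhaust particles at 1000 ug/m3 was compared with that of 6 rats that had inhaled filtered air, 1 day after the last exposure. These 12 libraries were taken from the 72 of the series by their titles, which carry the day, the animal number, the exposure (DE or AA) and the letter H. All 12 animals were adult male Sprague-Dawley rats, a laboratory strain with no transgene or treatment other than the inhaled atmosphere. Housed in pairs, they were kept in whole-body chambers for 6 hours per day on 4 days, breathing either the particle aerosol or filtered air, and each gave 1 library from a piece of lung. The rest of the series holds a lower dose of 200 ug/m3 with its own air animals (letter L), and lungs taken 7 and 27 days after exposure. The exposed animals were numbered 005 to 008, 029 and 030, and the air animals 001 to 004, 025 and 026. The labels do not say what separates the low and the high numbers.

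Diesel exhaust particles are carbon cores that carry adsorbed organic compounds, among them polycyclic aromatic hydrocarbons. In lung cells these hydrocarbons can bind the aryl hydrocarbon receptor (AhR), which with its partner ARNT turns on cytochrome P450 genes such as Cyp1a1 and Cyp1b1. Reactive compounds on the particles can free the transcription factor NRF2 from its inhibitor KEAP1, which turns on antioxidant genes such as Hmox1 and Nqo1. Particles are taken up by alveolar macrophages, and an inflamed lung draws in neutrophils through chemokines such as Cxcl1. The comparison asks which of these and other genes differed in whole lung 1 day after the exposure ended.

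The exposed libraries held fewer reads than the air libraries. Total counts on genes were 1042336 at the lowest, 1234767 at the median and 1428077 at the highest in the exposed group, and 1328934, 1619429.5 and 2397971 in the air group (two-sided exact permutation test, p = 0.00649). Between 16352 and 17023 genes had a count in the exposed libraries, and between 16633 and 17597 in the air libraries (two-sided exact permutation test, p = 0.0173). Depth therefore moved with the exposure, and its part in the results was not tested beyond a fit with the library total as a term, in which no gene passed (edgeR, smallest adjusted p = 0.963). The tissue carried the genes that define lung: Sftpc, the surfactant protein of alveolar type II cells, ranged from 2840.1 to 5478 counts per 1000000 (CPM) over the 12 animals, and Scgb1a1, the club cell secretory protein, from 1898 to 4074 CPM. Marco, a scavenger receptor of alveolar macrophages, was listed at 0 in all 12 libraries, while other macrophage genes were counted.

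No gene passed the test. Of 12304 genes tested with edgeR's quasi-likelihood test and Benjamini-Hochberg adjustment at 0.05, 0 were called (0%), and the smallest adjusted p was 0.451. Unadjusted p-values below 0.05 were found for 419 genes (3.41%), of which 216 were higher (1.76%) and 203 lower (1.65%) in exposed lungs. The log2 fold changes of all genes tested centred on 0.00 with 49.7% above 0, and the middle 90% lay between -0.28 and 0.30. Both DESeq2 and limma-voom called 0 as well, and gave 329 and 443 genes with p below 0.05 before adjustment. Groups that did not overlap, with every exposed animal above or below every air animal, were seen for 26 genes (0.211%), 13 in each direction (0.106% each way).

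The measurements were tight enough to bound the response of most genes. For 96.1% of the genes tested, the 95% confidence interval of the fold change excluded a 2-fold difference in either direction. A 1.5-fold difference was excluded for 73.99%. The shares depended on level. The genes were divided by mean level into 4 bins of 3076 genes. In the lowest bin, up to 16.2 CPM, 86.1% of intervals excluded a fold of 2 and 22.3% a fold of 1.5. In the highest bin these shares were 99.9% and 98.96%. The half-width of the interval had a median of 0.53 on the log2 scale in the lowest bin and 0.19 in the highest. A response of 1.5-fold in a gene of low level was thus often within the interval, while in an abundant gene it would have lain outside the interval.

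**Figure D1:**
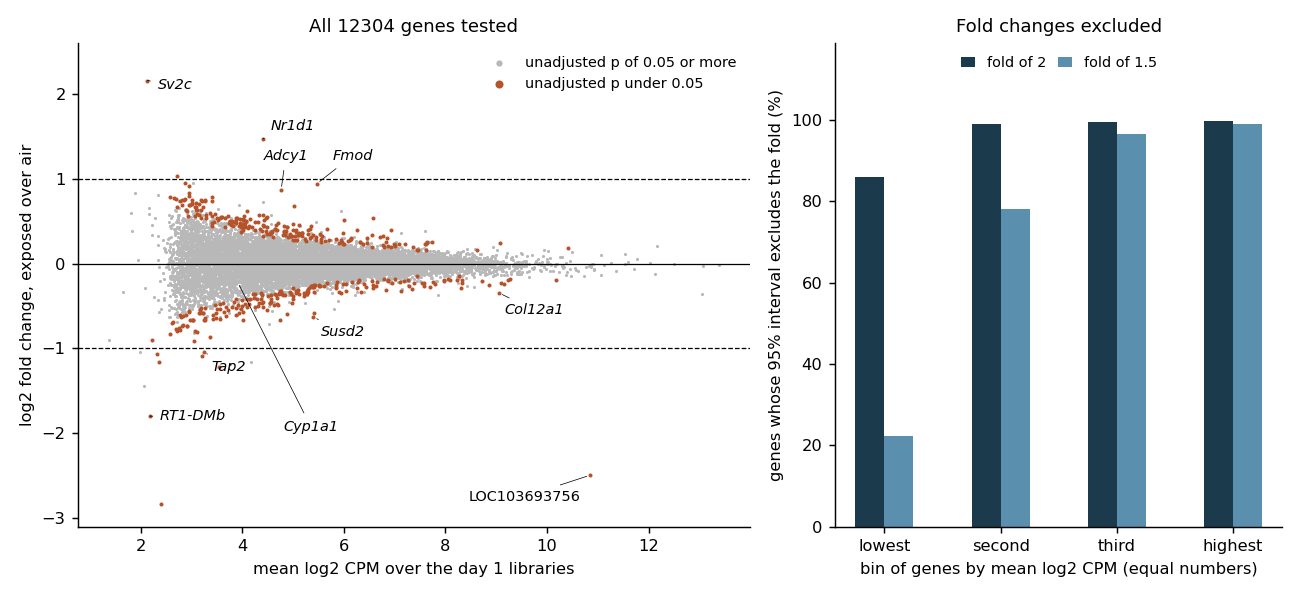
Left: log2 fold change (exposed over air) of each gene tested against its mean log2 CPM, with dashed lines at a 2-fold difference and unadjusted p under 0.05 in red. Right: percent of genes whose 95% interval excludes a fold of 2 or 1.5, in 4 bins of equal size by mean level; the share that excludes a fold of 1.5 goes from 22.3% in the lowest bin to 98.96% in the highest.

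Estimated fold changes above 2 were rare and sat in genes of low level. In all, 15 genes had an absolute log2 fold change over 1, of which 12 were lower and 3 higher in exposed lungs, and 12 of the 15 were in the lowest bin by level. The highest was Sv2c, a synaptic vesicle glycoprotein, at 2.15 (SE 0.58). It had 3.07 to 12.2 CPM in exposed and 0.582 to 3.02 CPM in air animals, so its groups did not overlap. The lowest was the unnamed locus LOC100909505 at -2.83 (SE 0.83), at 0 to 4.22 CPM in exposed and 3.08 to 25.5 CPM in air animals. The most abundant of the 15 was the unnamed locus LOC103693756, at -2.49 (SE 0.94, unadjusted p = 0.0149). Its level ran from 255.7 to 3716 CPM among exposed animals and from 899 to 22667 CPM among air animals, and these ranges overlap.

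Of the genes named by the rule for higher levels (the 10 with the smallest p, mean log2 CPM 3 or more, and 5 or 6 exposed animals above the air median), Adcy1 came first. Adcy1 encodes a calmodulin-stimulated adenylyl cyclase, an enzyme that makes cyclic AMP. In exposed lungs it had 15.2 CPM at the lowest, 36.2 at the median and 51.3 at the highest, and in air lungs 17.5, 19.6 and 23.5 CPM. Of the exposed animals, 5 stood above all air animals and 1, animal 029, stood below them all. The log2 fold change was 0.87 (SE 0.19, adjusted p = 0.451), and without animal 029 it was 1.01 with an adjusted p of 0.00462, so that 1 library decided this call. Adcy1 was also the gene whose response differed between doses: at 200 ug/m3 its log2 fold change against its own air group was -0.73 (SE 0.19), and the difference of both effects was 1.6 (SE 0.27, edgeR adjusted p = 0.00685), the 1 gene of 12304 (0.00813%) to pass that test. The air groups of both doses differed in level: air L had 21.1 CPM at the lowest, 31.7 at the median and 37.3 at the highest, nearer to the exposed animals than air H was. The lungs at 200 ug/m3 had 13.1, 19.8 and 23.1 CPM, near the level of air H. In the fit of all 72 libraries 0 genes passed it, with a smallest adjusted p of 0.215.

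Matrix and adhesion genes were among the other genes in that group. Fmod, the collagen-binding proteoglycan fibromodulin, had 25.6 CPM at the lowest, 66.1 at the median and 80.8 at the highest in exposed lungs and 19.6, 30.8 and 53.9 CPM in air lungs. Again 5 exposed animals stood above all air animals and animal 029 fell among them. Its log2 fold change was 0.94 (SE 0.25, unadjusted p = 0.00102), and the difference between its effects at both doses was 2.03 with an edgeR adjusted p of 0.0551. For this gene too air L, at 53.4 to 78.3 CPM, lay in the range of the animals exposed to 1000 ug/m3, and the lungs at 200 ug/m3 had 15.4 to 41.9 CPM. Gpc4, a heparan sulfate proteoglycan of the cell surface, had 41.7 to 66.04 CPM in exposed and 35 to 49.7 CPM in air lungs. Its log2 fold change was 0.41 (SE 0.12), and animal 029 was again the lowest of the exposed.

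Abca5, a lipid transporter of the ABC family, had 115 CPM at the lowest, 136 at the median and 168 at the highest in exposed lungs, and 81.8, 108 and 124 CPM in air lungs. The groups overlapped, and all 6 exposed animals lay above the air median, with a log2 fold change of 0.40 (SE 0.10, unadjusted p = 0.000439). Satb1, a chromatin organiser that is prominent in T cells, had 66.7 to 99.6 CPM in exposed and 52.4 to 83.98 CPM in air lungs, with a log2 fold change of 0.40 (SE 0.12). The kinesin gene Kif21b was at 0.45 (SE 0.13), Ints10 of the Integrator complex at 0.46 (SE 0.14), Fibp at 0.57 (SE 0.17) and Tbc1d19 at 0.61 (SE 0.19). For all of these the exposed and air animals overlapped.

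On the lower side the gene with the smallest p was Col12a1, the chain of the fibril-associated collagen XII. It had 424 CPM at the lowest, 478 at the median and 525 at the highest in exposed lungs, and 513, 582 and 737 CPM in air lungs. All exposed animals lay below the air median and the ranges met at their edges, with a log2 fold change of -0.35 (SE 0.09, unadjusted p = 0.00029). The difference was small but the gene is abundant, so its interval of -0.52 to -0.17 excluded a fold of 1.5. In air L, Col12a1 had 470 to 600 CPM with a median of 490. Tap2, which with TAP1 moves peptides into the endoplasmic reticulum for MHC class I, had 2.3 CPM at the lowest, 6.11 at the median and 7.73 at the highest in exposed lungs and 7.25, 12.3 and 19.3 CPM in air lungs. Its log2 fold change was -1.04 (SE 0.28), while its partner Tap1 was at -0.06 (SE 0.15). Tap2 had 6.08 to 8.50 CPM in air L, with a median of 7.24. By their medians, Col12a1 and Tap2 in air L were thus nearer to the exposed animals than air H was.

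Susd2, a membrane protein with a sushi domain, had 18.4 to 50.9 CPM in exposed and 39.9 to 62.4 CPM in air lungs. The 2 lowest exposed animals, 005 and 006 at 19.96 and 18.4 CPM, lay well under the other 4, which ran from 35.6 to 50.9 CPM. The log2 fold change was -0.63 (SE 0.17). Nelfcd, a subunit of the negative elongation factor that pauses RNA polymerase, was the one of the lower group with the tightest air values: 27.2 to 30.2 CPM, against 17.6 to 23.97 CPM in exposed lungs. These ranges did not overlap, nor did those of the zinc finger gene Zfp717, at 58.4 to 78.1 CPM in exposed and 83.3 to 97.5 CPM in air lungs. Gpihbp1, which anchors lipoprotein lipase on capillary endothelium, was at -0.60 (SE 0.18), with 16.1 to 32.5 CPM against 24.8 to 54.2 CPM. For Susd2 (53.7 to 71.3 CPM) and Gpihbp1 (29.5 to 57.7 CPM), air L was on the side of air H. Prdx6, a peroxiredoxin that is abundant in lung, had 260 CPM at the lowest, 276 at the median and 335 at the highest in exposed lungs and 293, 344 and 453 CPM in air lungs. Its log2 fold change was -0.29 (SE 0.09), and both groups overlapped.

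**Figure D2:**
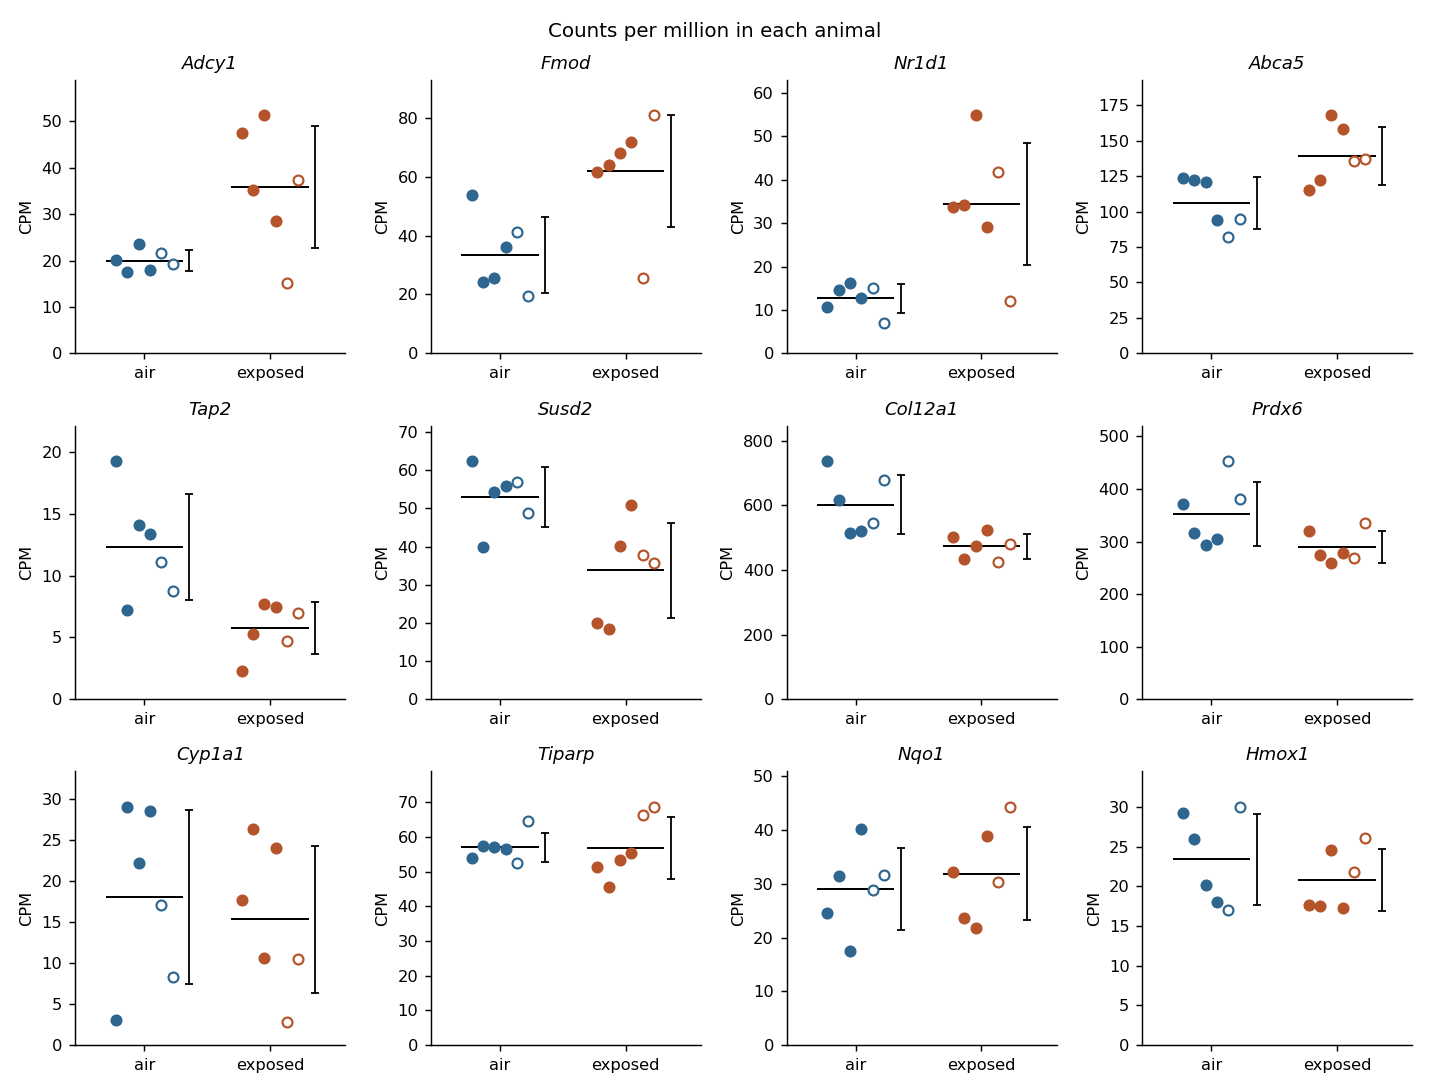
CPM (TMM-scaled counts, vertical axes from 0) of 12 genes in each of the 6 air (blue) and 6 exposed (red) animals; open circles are animals numbered 025 to 030, lines are means and bars are 1 SD. Adcy1 and Fmod show 5 exposed animals above all air animals with animal 029 apart, while Cyp1a1, Tiparp, Nqo1 and Hmox1 overlap throughout.

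The direction of these 20 genes was shared in part by other comparisons of the series. Of the 10 higher genes, 6 were also higher at 200 ug/m3 on day 1, 3 at 1000 ug/m3 on day 7 and 4 on day 27. Of the 10 lower genes the counts with the same direction were 7, 4 and 2. At 200 ug/m3 on day 1 no gene passed (0%) and 741 genes (6.02%) had an unadjusted p under 0.05, against 419 at 1000 ug/m3. At 1000 ug/m3 on day 7 the share was 4.39%. All of these comparisons used air animals of their own. With air H and air L of day 1 pooled as the control, all 20 genes kept their direction, and the log2 fold changes of 7 were smaller by over 1.5 times: Adcy1 was at 0.52, Fmod at 0.42, Gpc4 at 0.19, Nr1d1 at 0.89, Kif21b at 0.23, Fibp at 0.23 and Zfp717 at -0.19.

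Targets of the aryl hydrocarbon receptor showed no difference that passed, and 5 of the 9 listed were measured well enough to be tested. Cyp1a1, the cytochrome P450 most used as a sign of AhR activity, had 2.84 CPM at the lowest, 14.1 at the median and 26.3 at the highest in exposed lungs and 3.08, 19.6 and 29.01 CPM in air lungs. Each group held animals at both ends of a wide range, and the log2 fold change was -0.22 (SE 0.45) with an interval from -1.15 to 0.71, which did not exclude a fold of 2. Tiparp, an AhR-induced ADP-ribosyltransferase that limits the receptor, was far tighter. It had 45.7 CPM at the lowest, 54.4 at the median and 68.6 at the highest in exposed lungs and 52.4, 56.8 and 64.6 CPM in air lungs. Its log2 fold change was -0.02 (SE 0.12). Cyp1b1 was at -0.21 (SE 0.32), Nqo1 at 0.11 (SE 0.18) and the glucuronosyltransferase Ugt1a6 at -0.01 (SE 0.29). Cyp1a2 and Ugt1a7c had no count in any of the 12 libraries, and the repressor gene Ahrr reached 1.74 CPM at most in exposed and 2.31 CPM in air lungs.

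The receptor itself and its partners were well expressed. Ahr had 207 CPM at the lowest, 214 at the median and 258 at the highest in exposed lungs and 194, 211 and 277 CPM in air lungs, with a log2 fold change of -0.01 (SE 0.09). Arnt, the partner with which it binds DNA, was at -0.07 (SE 0.13). Hsp90ab1, the chaperone that holds the receptor in the cytosol, was at -0.20 (SE 0.08, unadjusted p = 0.0243), from 977 to 1281 CPM in exposed and from 1136 to 1371 CPM in air lungs.

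The promoters of these genes are shown because AhR acts on its targets through a known DNA element. AhR and ARNT bind the xenobiotic response element, whose core is GCGTG, and this core was searched on both strands from 250 bases before to 50 bases after each gene's start in RefSeq's GRCr8. It stood in 29.7% of the 33469 rat promoters of that table, so that a match is common. It was found in the windows of all 5 of these genes that were searched (Cyp1b1, Tiparp, Nqo1, Ugt1a6 and Ahrr), and no window of Cyp1a1 was used here. The sites nearest the start of each gene, or its single site, are shown 5′ to 3′ on the gene's strand with 10 bases on each side and the core (GCGTG, or CACGC where it lies on the opposite strand) in capitals.
Cyp1b1 (chr6:21094535-21094559, plus strand): tagagggatgGCGTGtcgcctctgg
Tiparp (chr2:152063623-152063647, plus strand): ctgtcaggcgCACGCgcacgggagg
Nqo1 (chr19:52220263-52220287, minus strand): taggctgtggCACGCaggatctttc
Ugt1a6 (chr9:96194875-96194899, plus strand): gtgagaatgtGCGTGacaaggtctg
Ahrr (chr1:30822152-30822176, plus strand): agggccgctcGCGTGctggggtggg
Of the 4 genes shown that were tested, Cyp1b1, Tiparp, Nqo1 and Ugt1a6, none passed in lungs 1 day after the particles.

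Targets of NRF2 had levels close to those of air lungs. Of 18 tested, 8 were higher and 10 lower, 0 passed, and the median log2 fold change was -0.02 against 0.00 for all genes. The extremes were -0.18 and 0.11, and the intervals of all 18 excluded a fold of 2 and those of 16 a fold of 1.5. Hmox1, heme oxygenase 1, had 17.2 CPM at the lowest, 19.7 at the median and 26.1 at the highest in exposed lungs and 17.02, 23.1 and 30.0 CPM in air lungs, with a log2 fold change of -0.18 (SE 0.23). Gclc and Gclm, the subunits of the enzyme that starts glutathione synthesis, were at 0.04 (SE 0.15) and 0.01 (SE 0.17). Txnrd1, thioredoxin reductase, was at -0.08 (SE 0.11), and Nfe2l2, the gene of NRF2 itself, at 0.04 (SE 0.08). The 15 antioxidant enzymes, which remove superoxide and peroxides, had a median of -0.07 with 10 lower, and the intervals of all 15 excluded a fold of 1.5. Prdx6 and Sod1, the cytosolic superoxide dismutase at -0.20 (SE 0.09), were the 2 of them with an unadjusted p under 0.05.

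Most genes of xenobiotic metabolism were lower, with none passing. Of 18 tested, 12 were lower and 6 higher, with a median log2 fold change of -0.08. Among the genes of all response lists 39.3% were higher, and among all genes tested 49.7%. Cyp2s1 was at -0.38 (SE 0.16), Ephx1, microsomal epoxide hydrolase, at -0.27 (SE 0.13), and Fmo2, the main flavin monooxygenase of lung, at -0.24 (SE 0.11). Fmo2 had 464 CPM at the lowest, 530 at the median and 580 at the highest in exposed lungs and 455, 634 and 783 CPM in air lungs. In air L it had 345 to 470 CPM with a median of 407, on the other side of the exposed animals from air H by the medians. In 1 of the 29 alternatives the sign of its log2 fold change turned, to 0.04. Cyp2b1, the major P450 of rat lung, was at -0.10 (SE 0.12). The list's median went to 0.01 without air animal 025, in which 16 of the 18 genes lay above the median of the 12 animals. With both air groups pooled as the control the list's median was -0.005.

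No inflammatory gene passed the test. Of 10 chemokines tested 7 were lower, with a median of -0.09. Cxcl1, the neutrophil attractant, had 4.39 CPM at the lowest, 7.24 at the median and 9.47 at the highest in exposed lungs and 6.05, 12.4 and 19.3 CPM in air lungs, and its log2 fold change of -0.86 (SE 0.36, unadjusted p = 0.0242) was toward lower levels. Ccl2, the monocyte attractant, was too low to test, with at most 2.84 CPM in exposed and 10.01 CPM in air lungs. Of 15 cytokine and NF-kB genes 11 were lower, with a median of -0.07. Il1b was at -0.26 (SE 0.27), Icam1 at -0.01 (SE 0.10) and Il33 at 0.03 (SE 0.09), while Tnf, Il6 and Csf3 were at or near 0 in all 12 libraries. Of 15 acute phase and complement genes 9 were lower, with a median of -0.06, and Lcn2, lipocalin 2, was at -0.12 (SE 0.27).

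More interferon-induced genes were higher than lower. Of 26 tested, 20 were higher and 6 lower, against 49.7% higher among all genes, and the median log2 fold change was 0.15. None passed, and 1 had an unadjusted p under 0.05: Cmpk2, at 0.32 (SE 0.15). Irf7, a transcription factor of the interferon response, was at 0.31 (SE 0.22), Mx2 at 0.36 (SE 0.22), Isg15 at 0.16 (SE 0.21) and Mx1 at -0.12 (SE 0.21). Members of the list share their regulators and are not independent of each other. The animals of a group differed: 24 of 26 genes lay above the 12-animal median in exposed animal 005 and 6 of 26 in exposed animal 030, while 1 of 26 did so in air animal 002 and 21 of 26 in air animal 001. Without exposed animal 006 the median was 0.08, without 030 it was 0.19, and within the animals numbered 025 to 030 it was 0.03. With both air groups pooled as the control the direction turned, to a median of -0.07, with Irf7 at -0.15 and Isg15 at -0.17.

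**Figure D3:**
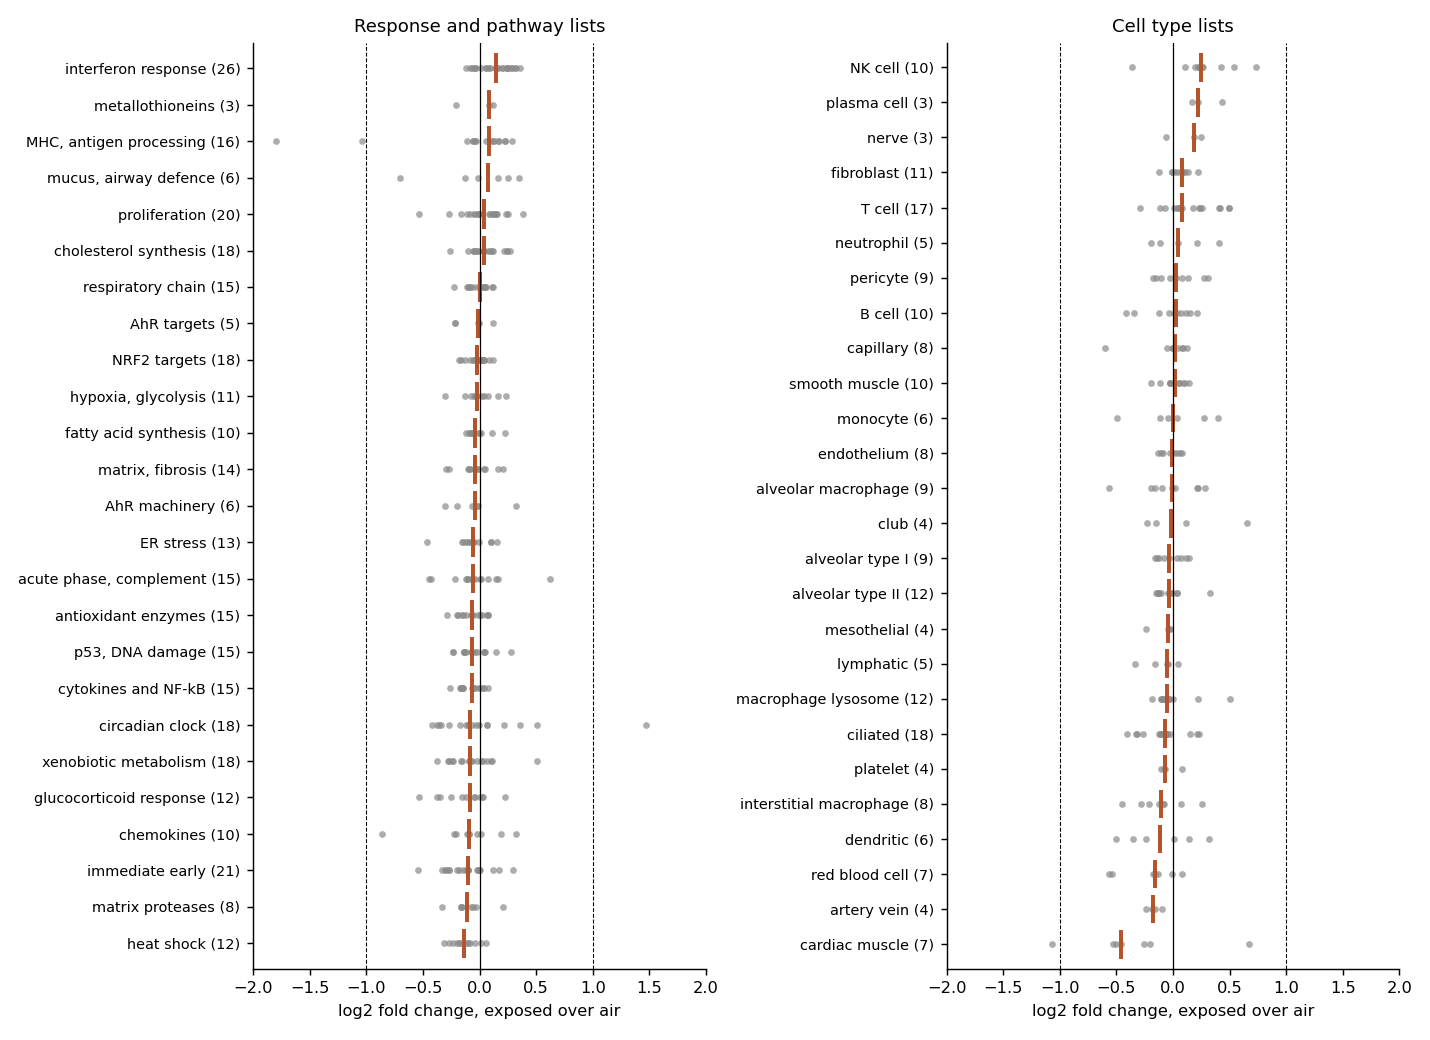
Log2 fold change (exposed over air, horizontal axis) of each tested gene (grey points) in lists with at least 3 tested genes, with the number tested in brackets and the list's median as a red bar; dashed lines mark a 2-fold difference. Of the 51 medians, 40 lie within 0.1 of 0 and 3 lie 0.2 or further from it: cardiac muscle (-0.46), NK cell (0.24) and plasma cell (0.22).

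Most stress-induced chaperones and early response genes were lower, with none passing. Of 12 heat shock genes 10 were lower, with a median of -0.14, where 39.3% of the genes of all response lists were higher. Hsph1 was at -0.31 (SE 0.12) and Hspa8 at -0.11 (SE 0.09). With both air groups pooled the heat shock median turned to 0.05. Of 21 immediate early genes, which rise within minutes of handling or stimulation, 17 were lower, with a median of -0.10, and 0 had an unadjusted p under 0.05. Fos had 7.68 CPM at the lowest, 13.7 at the median and 36.5 at the highest in exposed lungs and 11.8, 20.9 and 36.7 CPM in air lungs. Exposed animal 030 had 16 of the 21 above the 12-animal median, and without it the list's median was -0.21. Among endoplasmic reticulum stress genes 10 of 13 were lower with a median of -0.05, and Hspa5 was at -0.14 (SE 0.08).

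The circadian clock list held Nr1d1, the gene with the largest positive fold change among the 545 list genes tested. The clock is a feedback loop in which CLOCK (or NPAS2) and ARNTL switch on Per, Cry and Nr1d genes, and the Nr1d1 and Nr1d2 proteins in turn repress Arntl, Npas2 and Clock. Nr1d1 had 12.2 CPM at the lowest, 34.01 at the median and 54.8 at the highest in exposed lungs and 7.08, 13.7 and 16.1 CPM in air lungs. Of the exposed animals, 5 stood above all air H animals, from 29.2 to 54.8 CPM, and the other, 030, fell among them. Air L had 17.7 CPM at the lowest, 25.6 at the median and 29.5 at the highest. By its median it was nearer to the exposed animals than air H was. The fold change of Nr1d1 against air H was 2.77 with a 95% interval from 1.56 to 4.91 (log2 1.47, SE 0.40, unadjusted p = 0.00136). Its adjusted p over all genes was 1.00, and it passed among the animals numbered 001 to 008 alone, at 1.48 with an adjusted p of 0.00286. In animals 025 to 030 it was 1.33. Nr1d2 was at 0.51 (SE 0.21), from 40.0 to 106 CPM in exposed and from 43.9 to 61.05 CPM in air lungs. Npas2, which the Nr1d proteins repress, was at -0.34 (SE 0.12), with 38.8 to 59.02 CPM against 57.9 to 80.5 CPM.

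Other clock genes did not share this pattern. Arntl was at -0.10 (SE 0.12), Clock at -0.07 (SE 0.09), Per2 at -0.10 (SE 0.17), Cry1 at 0.07 (SE 0.26), Dbp at -0.03 (SE 0.27) and Tef at 0.07 (SE 0.12). Per3 was at 0.35 (SE 0.18) and Per1, which glucocorticoids also induce, at -0.38 (SE 0.34). Of the 18 clock genes tested 6 were higher and 12 lower, with a median of -0.08. The hour at which animals were killed is not in the labels, and its part in these values was not tested. In the libraries of day 7, Nr1d1 was at 1.72 (SE 0.64, adjusted p = 1.00) at 1000 ug/m3, on day 27 at 0.56 (SE 0.53), and on day 1 at 200 ug/m3 at 0.22 (SE 0.36), each against its own air animals. The test of the dose difference on day 1 gave 1.248 (SE 0.54, adjusted p = 0.998).

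CLOCK and ARNTL bind the E-box CACGTG, which reads the same on both strands and stood in 6.42% of all 33469 promoter windows. It was found in the windows of 4 clock genes, and 3 of them are shown, chosen after their values were seen, to set Nr1d1 beside genes with the same motif and smaller fold changes. The other was Bhlhe41, a clock repressor, at -0.27 (SE 0.27), and no window of Cry1 was used here. No E-box was found in the searched windows of Nr1d2, Dbp, Per1, Per2, Per3 and Npas2. Sequences are from RefSeq's GRCr8, 5′ to 3′ on the gene's strand, with the E-box in capitals. The Nr1d1 site belongs to 1 of the 2 windows the table gives for that gene, and the Ciart site is 1 of 3 in its window.
Nr1d1 (chr10:84229630-84229655, minus strand): tcagctcccaCACGTGtctggggatc
Tef (chr7:115206619-115206644, plus strand): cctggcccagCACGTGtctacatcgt
Ciart (chr2:186112324-186112349, minus strand): tatctagagtCACGTGttgccggcaa
Beside the 1.47 of Nr1d1, the log2 fold changes of Tef and Ciart, whose windows hold the same E-box, were 0.07 and -0.18 (SE 0.14).

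Glucocorticoid-induced genes, which follow the adrenal rhythm and stress, spread widely among the animals of each group. Of 12 tested 8 were lower, with a median of -0.09. Zbtb16 had 19.9 CPM at the lowest, 35.5 at the median and 165 at the highest in exposed lungs and 24.6, 80.0 and 171 CPM in air lungs. In exposed animal 006, 10 of the 12 genes lay below the 12-animal median, and in exposed animal 008, 10 of 12 lay above it. Without animal 008 the list's median was -0.27, and without animal 006 it was -0.01.

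No gene of repair or growth passed. Of 14 matrix and fibrosis genes tested 10 were lower, with a median of -0.04, and the intervals of 12 excluded a fold of 1.5. Col3a1, the chain of collagen III, was at 0.05 (SE 0.10), Fn1, fibronectin, at -0.08 (SE 0.10) and Timp1 at 0.21 (SE 0.18). Ctgf, a matricellular growth factor, had 134 to 170 CPM in exposed and 154 to 210 CPM in air lungs, with a log2 fold change of -0.30 (SE 0.11, unadjusted p = 0.00846). Thbs1, thrombospondin 1, was at -0.27 (SE 0.10). The 20 proliferation genes divided 10 to 10 with a median of 0.04, from -0.54 for Kif11, a mitotic kinesin (SE 0.24, unadjusted p = 0.0333), to 0.39, and the intervals of 17 excluded a fold of 2 and those of 9 a fold of 1.5. The 15 p53 and DNA damage genes had 10 lower with a median of -0.07, the 18 cholesterol synthesis genes 11 higher with a median of 0.04, and the 15 respiratory chain genes a median of 0.00.

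No gene of the epithelial and vascular cell lists passed. In whole lung RNA, fewer cells of a type and less RNA per cell cannot be told apart, so each list is given as a level only. All 12 alveolar type II genes, all 9 type I genes and all 8 pan-endothelial genes had intervals that excluded a fold of 1.5, and the list medians were -0.04, -0.03 and -0.01. Other lists of these tissues were bounded less closely: a fold of 1.5 was excluded for 1 of 4 club cell, 10 of 18 ciliated cell, 2 of 4 artery and vein and 3 of 5 lymphatic genes. The summed level of the type II genes was 10547 to 17397 CPM in exposed and 12305 to 18952 CPM in air lungs. Sftpc was at 0.00 (SE 0.12), and Ager, the receptor that marks type I cells, at -0.14 (SE 0.10). Nkx2-1, the transcription factor of lung epithelium, was at 0.33 (SE 0.12, unadjusted p = 0.00716), from 104 to 148 CPM in exposed and from 77.03 to 136 CPM in air lungs. Over the 29 alternatives its log2 fold change ran from 0.05 to 0.47, and from 0.26 to 0.44 with 1 library left out. Among 18 genes of ciliated cells 15 were lower with a median of -0.07, without exposed animal 008 the median was -0.01, and with both air groups pooled it turned to 0.01. Basal, neuroendocrine, fat, cartilage and thymus genes were too low to test, with summed levels of at most 7.20, 5.37, 14.4, 1.89 and 9.13 CPM.

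No gene of the macrophage and neutrophil lists passed. Of 9 alveolar macrophage genes tested 4 were higher and 5 lower, with a median of -0.01 and a summed level of 464 to 699 CPM in exposed and 492 to 745 CPM in air lungs. Abcg1, a cholesterol exporter of these cells, was at -0.01 (SE 0.10) and Mrc1 at -0.10 (SE 0.10), while Fabp4 was at -0.57 and Pparg at 0.28. The intervals of 7 of the 9 excluded a fold of 2 and those of 3 a fold of 1.5. Of 8 interstitial macrophage genes 6 were lower with a median of -0.10, or -0.23 with both air groups pooled, and C1qc was at -0.45. Monocyte genes divided 3 to 3 with a median of -0.003, and 1 had an unadjusted p under 0.05: Cd14, at -0.49. Of 12 lysosomal genes of macrophages 10 were lower with a median of -0.06. Of the 5 neutrophil genes tested 3 were higher and 2 lower, with a median of 0.04. S100a8 was at 0.40 (SE 0.24), S100a9 at 0.21 (SE 0.18) and Cxcr2 at -0.20 (SE 0.26). Within the low animal numbers S100a8 was at 0.70, and within the high animal numbers at -0.28. Mpo was at 0 in every library. S100a9 had 21.7 CPM at the lowest, 43.3 at the median and 60.6 at the highest in exposed lungs and 29.2, 37.1 and 41.9 CPM in air lungs. For the neutrophil list the intervals of all 5 excluded a fold of 2 and those of 2 a fold of 1.5.

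More NK and T cell genes were higher than lower, against 49.7% higher among all genes. None passed, and the medians depended on single animals. Of 10 natural killer (NK) cell genes 9 were higher with a median of 0.24, and of 17 T cell genes 14 were higher with a median of 0.08. Eomes, a transcription factor of NK and memory T cells, had 4.92 CPM at the lowest, 7.22 at the median and 9.74 at the highest in exposed lungs and 1.96, 4.43 and 5.44 CPM in air lungs, with a log2 fold change of 0.74 (SE 0.32, unadjusted p = 0.0283). Prf1, perforin, was at 0.26 (SE 0.17), Cd8a at 0.41 (SE 0.18) and Tcf7 at 0.25 (SE 0.11). In exposed animal 029 all 10 NK genes lay above the 12-animal median, by a median of 0.81 on the log2 scale. Without it the list's median was 0.12, and within animals 001 to 008 it was -0.01. The T cell median was 0.01 without exposed animal 030. With both air groups pooled as the control the NK median was 0.09 and the T cell median 0.05. Of 10 B cell genes 6 were higher and 4 lower with a median of 0.02, or -0.07 with both air groups pooled. The summed NK level was 130 to 232 CPM in exposed and 109 to 169 CPM in air lungs.

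Heart muscle genes were counted in these pieces of lung and were mostly lower in the exposed group, with none passing. Cardiac muscle runs along the pulmonary veins in rats, and of 20 listed genes 7 were tested, 6 lower and 1 higher, with a median of -0.46. Actc1, cardiac actin, had 13.3 CPM at the lowest, 18.0 at the median and 26.2 at the highest in exposed lungs and 19.6, 28.4 and 29.6 CPM in air lungs. Myl7, the atrial myosin light chain, was at -1.07 (SE 0.46). Ldb3, also found in other striated muscle, was the 1 higher gene, at 0.67 (SE 0.28), and had the smallest p of the 7. Nppa, Nppb and Nkx2-5, also genes of heart muscle, were at 0 in all 12 libraries, and the cause of these counts of 0 was not tested. The summed level was 183 to 284 CPM in exposed and 216 to 392 CPM in air lungs, and without air animal 001 the list's median was -0.24. Red blood cell genes had a median of -0.16, or -0.08 without exposed animal 029, with 6 of 7 lower, among them Slc4a1 at -0.57 (SE 0.27), while Hbb was at -0.01 (SE 0.24). Which part of the lung each piece came from is not in the labels, and its part in the other results was not tested.

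Over all lists, 545 different genes were tested and 0 passed. At an unadjusted p under 0.05 there were 35 (6.42%), against 3.41% of all genes, and 41.3% were higher, against 49.7%. The lists were chosen with earlier results of these data known, and members of a list are not independent of each other. These shares are therefore descriptions and not a test. The intervals of 92.7% excluded a fold of 2 and those of 65.1% a fold of 1.5. The direction of a list often hung on 1 animal: of 51 lists with at least 3 tested genes, 26 had a median that changed sign when 1 of the 12 libraries was left out. In 27 of the 51, the animals numbered 001 to 008 and those numbered 025 to 030 gave medians of opposite sign. With both air groups of day 1 pooled as the control, 16 of the 51 medians changed sign.

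**Figure D4:**
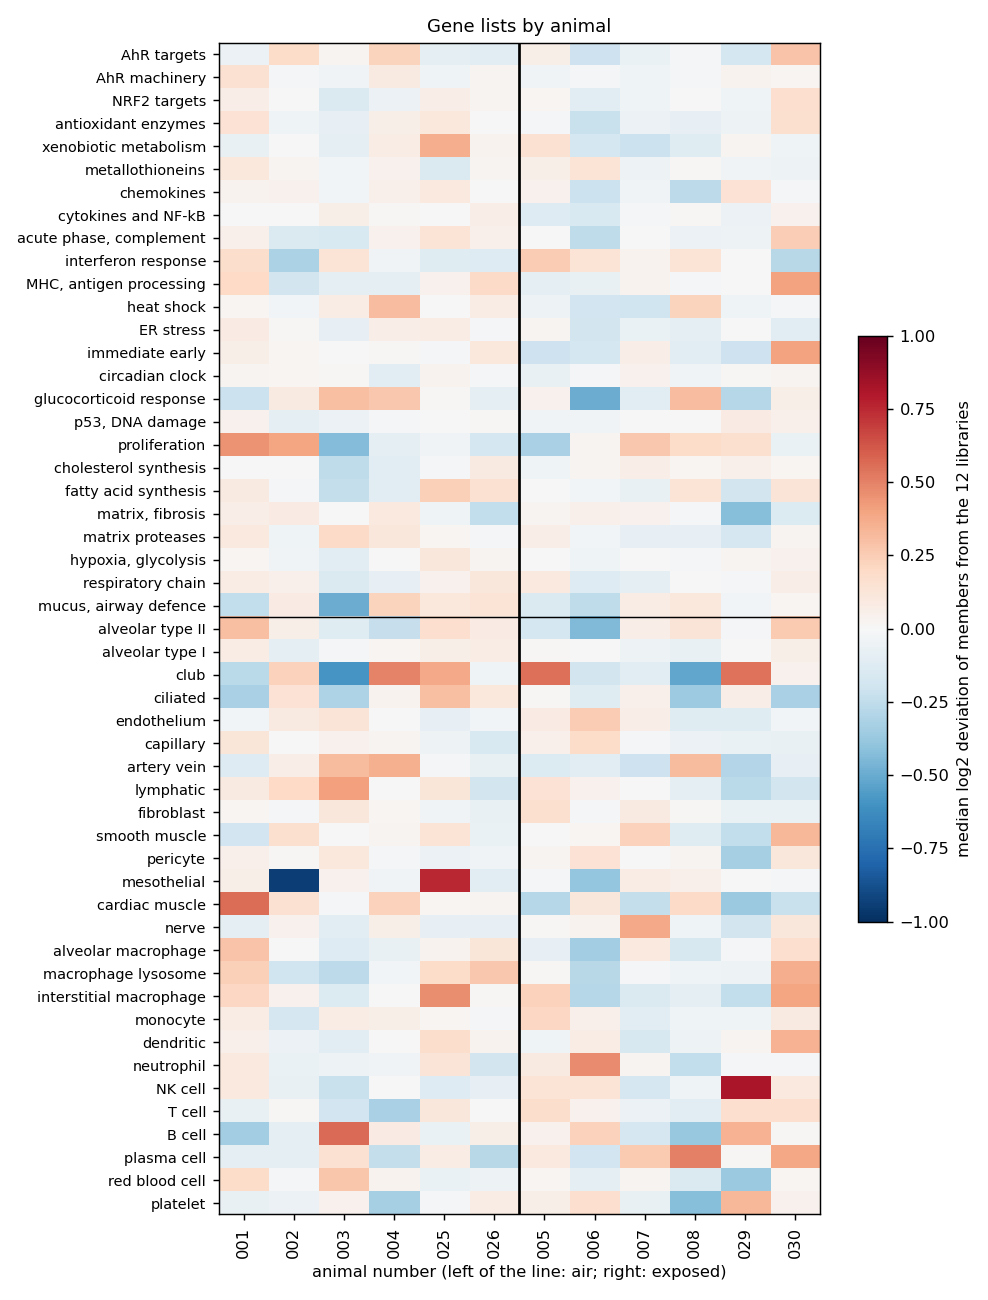
Median log2 deviation of a list's tested genes from their median over the 12 libraries (colour), for each animal (columns; 6 air, then 6 exposed) and list (rows; responses above the thin line, cell types below). The strongest colours belong to single animals: mesothelial genes in air animals 002 (-0.94) and 025 (0.76), and NK genes in exposed animal 029 (0.81).

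By log2 CPM, exposed animals differed more among themselves than air animals did. The median within-group SD of log2 CPM was 0.256 in the exposed and 0.219 in the air group, and the SD was larger in the exposed group for 62.4% of genes. The share of genes more than 2-fold from the 12-animal median was 0.927% to 1.66% in exposed and 0.561% to 1.17% in air animals. The exposed libraries were also shallower, which adds counting error to these values. Chi-square per degree of freedom between pairs of libraries reached higher in the air group. It was 1.785 to 3.747 for exposed pairs and 2.031 to 5.495 for air pairs. The part of depth in either measure was not tested. Among 11607 genes with a mean log2 CPM of at least 3, 109 varied more than 4-fold within the exposed and 71 within the air group.

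Animals differed in gene groups that belong to a cell type. Animal 029 lay furthest out on the first principal component, at -31.0 where air animals ranged from -4.99 to 16.3, and had red blood cell genes low (0 of 7 above the 12-animal median) beside its high NK genes. Matrix genes were mostly below the 12-animal median in all 4 animals numbered 025 to 030, 11 of 14 in 029, 030 and 026 and 10 of 14 in 025, with the lowest median deviation in 029 (-0.43). Type II genes had their lowest median deviation in exposed animal 006 (-0.44, 11 of 12 below), while in exposed animal 005 and air animal 004 all 12 lay below, by smaller medians of -0.17 and -0.23. Animal 006 also had the highest Muc5b, a gel-forming airway mucin. Animal 030 had 14 of 16 MHC and antigen processing genes above it. Of 20 proliferation genes, 16 lay below the median in air animals 003 and 026 and in exposed animal 005, and 17 lay above it in air animal 001. All 4 club cell genes lay below it in air animal 003 and in exposed animals 007 and 008. The first and second components held 15.3% and 14.7% of the variance, and the groups overlapped on both.

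The 10 genes that varied most within groups overlapped between groups. Fam111a, a nuclear protease that takes part in antiviral restriction, was nearly bimodal: animals 001, 025 and 026 of the air group and 008 of the exposed group had 69.4 to 117 CPM, and the other 8 had 3.51 to 12.3 CPM. Its fold change rested on how many of the 4 fell in each group, at -1.16 (SE 0.92) over all animals, 0.20 in animals 001 to 008 and -3.53 (adjusted p = 0.0185) in animals 025 to 030. Retnla, a secreted protein of alternatively activated macrophages and airway epithelium, ran from 0.947 to 52.1 CPM in exposed and from 6.65 to 43.3 CPM in air lungs. Cd300lg, a receptor on capillary endothelium, was at 0 in air animal 026 and at 0.878 to 17.05 CPM in exposed lungs. The complement gene C4a-2, the collagen copy Col1a2-2, the histone gene H3f3c and the ribosomal genes Rpl39 and Rps19 were also among these 10. They have near-identical copies in the genome, among which reads may have been divided, so their spread is uncertain.

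**Figure D5:**
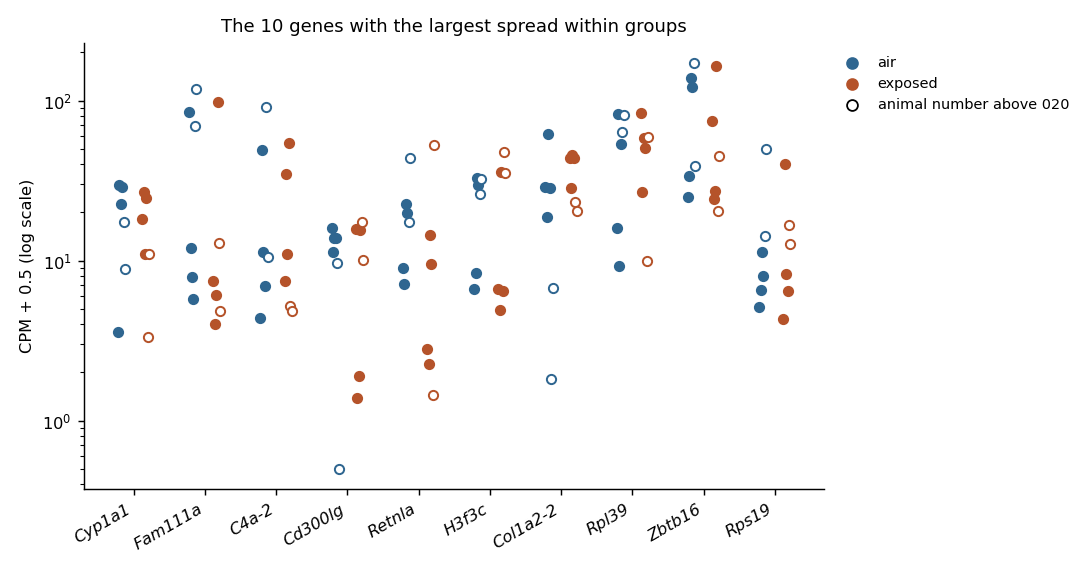
CPM plus 0.5 (log axis) of the 10 genes with the largest within-group SD in each of the 12 animals (blue air, red exposed; open circles are animals 025 to 030). Fam111a falls into a high set of 4 animals and a low set of 8, and each gene's air and exposed animals overlap.

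More genes passed between the low and high animal numbers than between exposed and air animals. Within the 12 libraries, with the exposure in the model, 13 of 11511 genes (0.113%) differed between animals 025 to 030 and animals 001 to 008, and 1192 (10.4%) had an unadjusted p under 0.05. RT1-Da, an MHC class II chain, was higher in the later numbers at 300 to 367 CPM against 165 to 244 CPM (log2 0.67, SE 0.09, adjusted p = 0.000157). Doc2b, a calcium sensor of vesicle release, was at 23.2 to 37.5 CPM against 6.96 to 16.2 CPM (log2 1.52, SE 0.21), and Cybb, the phagocyte NADPH oxidase chain, was higher by 0.52 (SE 0.11). Lower in the later numbers were Fn1 at -0.40 (SE 0.08), Npr3, the natriuretic peptide clearance receptor, at -0.69 (SE 0.12), Figf, a lymphatic growth factor, at -0.84 (SE 0.17) and the imprinted zinc finger gene Plagl1 at -1.13 (SE 0.23). Both sets of numbers held air and exposed animals, 4 and 4 against 2 and 2. With the set of numbers as a term in the model the exposure still called 0 genes, the smallest adjusted p being 0.108, for Nr1d1.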

How the data were processed

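Stranded total RNA libraries, depleted of ribosomal RNA, were made from lung pieces of separate animals. Per the submitters' processing notes, the tools were bcl2fastq 2.19, Trimmomatic 0.35, HISAT2 2.1.0, SAMtools 1.8 and HTSeq 0.6.1 with the Rnor_6.0 build. Which annotation HTSeq read, and with what strand option, is not given in the sources used here, so reads of overlapping and antisense genes may not be told apart. The authors deposited raw counts per gene for 30042 genes in 72 libraries, without normalization.

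From these counts, edgeR 4.0.16 (R 4.3.3) was run on the 24 libraries of day 1 after filterByExpr within groups, with TMM scaling and robust dispersions for the quasi-likelihood test. The model held a mean per group and took the animals as independent, with no term for cage or chamber. Whether animals that shared a cage were alike was not tested. Of 21968 genes with a count, 12304 were tested. Genes passed at a Benjamini-Hochberg adjusted p under 0.05, and 95% intervals came from the same model. CPM values are TMM-scaled, and log2 CPM uses a prior count of 2. Totals of 1042336 to 2397971 counts per library set the precision. The 30 pairs of libraries within groups held 0 identical pairs, and their counts differed by more than sampling noise (chi-square per degree of freedom 1.785 to 5.495). The scripts were tested on simulated data.

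The comparison and the 59 gene lists (25 of responses and 34 of cell types, 763 of 773 members found, 9 by a synonym) were chosen with earlier results of these data known. Named genes were up to 10 in each direction with the smallest p, a symbol, mean log2 CPM 3 or more, and 5 or 6 exposed animals beyond the air median. They also include the reference genes and smallest p of each list, the 10 genes of largest within-group SD, and those passing between doses or animal number series. Other genes in the text (those over 2-fold, and further list members given for their role) were chosen after their values were seen. Alternatives used DESeq2 1.42.0, limma 3.58.1 and sva 3.50.0. Promoter windows are from RefSeq's GRCr8, a later build than that of the counts, and 19073 table symbols matched the RefSeq gene table. The values of 1 named gene are not reported here.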

Additional observations from a re-analysis of the deposited data

Results flagged for a closer look

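Among 170 named genes, 23 of 340 groups of 6 (6.76%) had 1 animal whose gap to the nearest other took more of the group's range than Dixon's 95% critical value, on the log2(CPM + 0.5) scale. Chance gives about 1 in 20 such groups. The values below are these gap ratios.

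Exposed animal 029 was lowest for Fmod (0.761), Gpc4 (0.648), Glipr2 (0.639) and Tnnt3 (0.745), and it had the highest scaling factor of the exposed libraries (0.715). Exposed animal 008 was lowest for Zfp717 (0.682) and Dbp (0.789), the clock output gene. It was highest for Nfkbia (0.65), the NF-kB inhibitor, at 249 CPM against 94.8 to 133 CPM, and for Atp5a1 (0.647) and Fam111a (0.637). Exposed animal 006 was highest for Ahr (0.688) and Trpc6 (0.755), and exposed animal 005 for Timp3 (0.697).

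Air animal 003 was lowest for C3 (0.912), the central complement protein, at 144 CPM against 233 to 244 CPM. It was also lowest for Psmd5 (0.677), Kif11 (0.633) and Scgb3a2 (0.645), and highest for Cldn5 (0.682). Air animal 002 was lowest for Nelfcd (0.659) and Ager (0.679), air animal 004 for C4b (0.682), air animal 025 for Eomes (0.703) and air animal 026 for Cd300lg (0.856). Air animal 001 was highest for Car4 (0.636).

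The effect on Adcy1 differed between the doses by 1.6 on the log2 scale in the test of that difference. The air groups of both doses also differed in this gene, with medians of 19.6 CPM in air H and 31.7 CPM in air L. With all 72 libraries 0 genes passed that test.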

How the results depend on the processing

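No paired analysis was possible because the animal numbers differ between the groups. No gene passed for the exposure in most alternatives. The exceptions had 1 gene each: Nr1d1 within animals 001 to 008, Fam111a within animals 025 to 030, and Adcy1 (1.03, edgeR adjusted p = 0.0103) without animals 029 and 030, a choice made after seeing the data. Leaving out 1 library gave 0 to 1 genes, the 1 being Adcy1 without animal 029. The 419 genes at an unadjusted p under 0.05 became 824 with no filter, 729 with all 72 libraries, 885 with both air groups pooled and 12 against a fold limit of 1.5, and 384 to 550 with 1 library left out. Of them, 216 were higher and 203 lower, against 282 and 152 without scaling factors. The share of intervals that excluded a 2-fold difference, 96.1%, was 77.1% with a filter of 1 CPM, 62% with no filter, 95.6% with limma-voom, 97.9% with 12 libraries or with the number series as a term, 83.8% with 72 libraries and 94.3% to 94.9% with 1 library left out. For the dose difference, 1 gene became 2 without scaling factors, with DESeq2 and with non-robust dispersions, and 0 with 72 libraries. For the animal number series, 13 genes became 126 with no filter, 54 with DESeq2 and 3 to 39 with 1 library left out (39 without animal 001, 7 without 004, 8 without 007 and 3 without 026). The median within-group SD, 0.237, was 0.286 with a filter of 1 CPM. The cause of these shifts was not tested. The 20 genes named for higher or lower levels kept their sign in all 29 alternatives, which share most libraries with the fit that chose them, while 88 of 171 named genes changed sign in at least 1, and 94 of 1512 list medians moved by more than their spread. Intervals were widest for genes of low level: in the lowest bin, 22.3% excluded a 1.5-fold difference, and the median SD there was also larger (0.411 in exposed and 0.359 in air animals).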
